A study of Mus musculus with 24 samples.

Results

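The aquaporin genes described here encode channels for water and, for some members, glycerol and other small solutes. They are Aqp8, Aqp9, Aqp11, Aqp1, Aqp4, Aqp3 and Aqp7, taken by their gene symbol in the platform annotation: 7 of the 19935 genes with a symbol of their own, each read by 1 of the array's 28815 probe sets. Aqp8 was chosen by its 24 h wave in the values of these same arrays, so its 24 h fit is given as a description without a test. The other 6 were taken as members of the same family. All livers came from adult male C57BL/6 mice (Harlan-Olac) kept in constant dim red light after stable entrainment to light and dim red light and were frozen on the second cycle of constant conditions. The labels name no genotype beyond the strain and no agent. The groups are 8 circadian times, CT00, CT03, CT06, CT09, CT12, CT15, CT18 and CT21, with 3 livers each and 1 Affymetrix Mouse Gene 1.0 ST array per liver (24 arrays). The labels give 3 replicates per time where they describe RNA extraction and 4 mice where they describe harvest. By convention CT00 to CT12 is the subjective day, when mice rest, and CT12 to CT24 the subjective night. The deposited values are taken as log2 values and are centred: each probe set is given relative to its own median over the 24 arrays, so levels cannot be compared between genes. The 4 arrays that correlated least with the other arrays of their time (mean r of 0.11 or lower) were CT09 replicate 3, CT15 replicate 1, CT18 replicate 3 and CT21 replicate 1, and each call was also made without them.

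Aquaporins form tetramers in membranes, and each subunit holds its own pore. Orthodox members such as Aqp1 and Aqp4 pass mainly water, while the aquaglyceroporins Aqp3, Aqp7 and Aqp9 also pass glycerol. In hepatocytes, Aqp8 is known from vesicles and the bile canaliculus, where it lets water follow secreted solutes into bile, and from mitochondria. It also conducts ammonia and hydrogen peroxide. Aqp9 lies in the membrane facing the blood sinusoid and admits glycerol for glucose synthesis, and Aqp11 is an unorthodox member of the endoplasmic reticulum.

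Windows from the RefSeq promoter table (GRCm38.p6) were used for 6 of the 7 genes. The Aqp4 window was not examined, so nothing is said about its promoter. The 250 bases before the annotated start are printed for the 3 genes whose transcripts followed a 24 h wave, from the outermost start where a gene has several. Capitals mark an E-box, CACGTG, the element bound by the clock activators CLOCK and BMAL1. The Aqp8 window is chr7:123462044-123462293 on the plus strand, the Aqp9 window chr9:71163290-71163539 on the minus strand and the Aqp11 window chr7:97738248-97738497 on the minus strand.
Aqp8: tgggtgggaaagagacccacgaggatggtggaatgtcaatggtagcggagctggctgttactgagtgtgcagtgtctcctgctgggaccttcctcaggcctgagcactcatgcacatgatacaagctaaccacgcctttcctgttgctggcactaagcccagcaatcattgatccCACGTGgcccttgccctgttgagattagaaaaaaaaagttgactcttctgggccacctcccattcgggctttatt
Aqp9: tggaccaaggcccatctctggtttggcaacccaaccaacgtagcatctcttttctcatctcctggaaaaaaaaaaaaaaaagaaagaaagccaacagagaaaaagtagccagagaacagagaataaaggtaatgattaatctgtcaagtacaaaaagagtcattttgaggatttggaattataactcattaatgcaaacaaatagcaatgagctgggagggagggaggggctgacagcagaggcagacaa
Aqp11: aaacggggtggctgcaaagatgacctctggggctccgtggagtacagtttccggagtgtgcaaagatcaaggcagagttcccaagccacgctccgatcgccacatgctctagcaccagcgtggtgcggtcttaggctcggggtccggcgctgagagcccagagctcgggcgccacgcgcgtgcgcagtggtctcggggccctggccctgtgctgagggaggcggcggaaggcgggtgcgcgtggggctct

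The Aqp8 window held 1 E-box, 75 to 70 bases before the start. No E-box was found in the windows of Aqp9, Aqp11, Aqp1, Aqp3 or Aqp7. Of the 32851 windows of this length that were searched, 6.02% held one. The windows were also searched on both strands for the D-box (TTATGTAA or TTATGCAA, in 1.5% of all windows), for a half-site of the ROR and REV-ERB receptors (TAGGTCA or TGGGTCA, 5.38%), for the TATA box (TATAAA, 12.4%) and for CCAAT (33.9%). The single further match was a TATA box in the Aqp3 window, 29 to 24 bases before the start. GC content was 52.4% in the Aqp8 window, 40.4% in that of Aqp9 and 67.2% in that of Aqp11, against a median of 52.4% over all windows. These matches describe letters, and binding was not measured.

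Aqp8 had the widest swing of the family. Its arrays stood high from CT21 to CT06 and low from CT09 to CT15, with a fall between CT06 and CT09 and a rise between CT15 and CT18. At CT00 the 3 arrays read 0.56, 0.49 and 0.36 on the log2 scale, relative to the median of the gene. At CT03 they read 0.82, 0.59 and 0.37, and at CT06 0.18, 0.25 and 0.14. The values then dropped out of this range: -1.19, -0.82 and -1.02 at CT09. At CT12, the start of the subjective night, the arrays gave -1.27, -1.67 and -1.80, and at CT15 -1.64, -1.06 and -1.32. The recovery was under way at CT18, with -0.41, -0.14 and -0.41. At CT21 the arrays lay close together at 0.32, 0.37 and 0.34. All 9 arrays of CT09, CT12 and CT15 lay at -0.82 or lower, and all 15 others at -0.41 or higher, so these 3 times did not overlap with the rest. In whole liver, fewer cells that make a transcript and less of it per cell cannot be told apart.

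**Figure D1:**
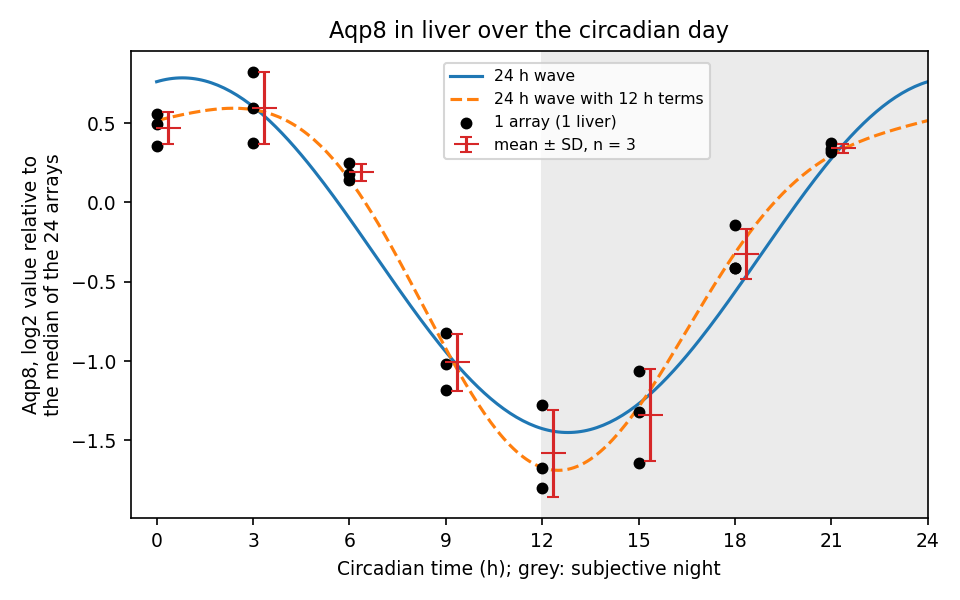
Aqp8 by circadian time: each black point is 1 array, red marks the mean ± SD of 3 arrays (drawn slightly to the right), the blue line is the fitted 24 h wave and the dashed orange line the same with 12 h terms. Time means run between 0.60 at CT03 and -1.58 at CT12, and the blue wave lies above the CT00 arrays and below those of CT06.

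The time means of Aqp8 were highest at CT03 (0.60 ± 0.23, SD, n = 3) and lowest at CT12 (-1.58 ± 0.27, SD, n = 3), a span of 2.18 on the log2 scale or 4.52-fold. The SD within a time, pooled over the 8 times, was 0.187, so the span was 11.6 times that spread. The largest step between neighbouring times lay between CT06 and CT09, where the mean fell by 1.20, and the next between CT15 and CT18, where it rose by 1.02. Both were steps without overlap between the arrays, as were those of CT06 against CT03 (-0.41), CT12 against CT09 (-0.57) and CT21 against CT18 (0.67). CT03 overlapped with CT00, and CT15 with CT12. Between times 12 h apart the difference was -2.05 ± 0.14 (SE) for CT12 minus CT00, -1.94 ± 0.14 for CT15 minus CT03, -0.51 ± 0.14 for CT18 minus CT06 and 1.35 ± 0.14 for CT21 minus CT09.

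A cosine of period 24 h fitted to the 24 arrays gave Aqp8 an amplitude of 1.12 ± 0.07 (log2, middle to peak, SE), a peak at 0.799 h ± 0.233 and a peak-to-trough fold of 4.71. This wave took up 91.7% of the variance of Aqp8 over the arrays. Its amplitude ranked 8 among the 19935 genes, below those of the clock genes Dbp (rank 2) and Arntl (rank 6) and above those of Aqp9 (rank 611) and Aqp11 (rank 997). Beside the clock, the Aqp8 peak came after that of Arntl, which encodes the activator BMAL1 (22.7 h ± 0.277), and before that of Nr1d1, which encodes the repressor REV-ERB alpha (7.29 h ± 0.286). Over the alternatives described in the closing section the amplitude of Aqp8 stayed between 1.06 and 1.23 and its peak between 0.403 and 1.11 h.

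The 12 h component, which is orthogonal to the 24 h terms, asked whether the curve of Aqp8 leaves a plain cosine. Both Aqp8 and this test were chosen with earlier results of these data known, and the other 6 genes were not chosen by their rhythm. The p-values of Aqp8 for the shape of its curve are therefore given as a description. Aqp8 was the 1 of 7 aquaporin genes called, with a 12 h amplitude of 0.25 ± 0.05 and crests at 6.15 and 18.2 h (adjusted p = 0.0439, limma's moderated F with Benjamini-Hochberg adjustment over all genes). Of all genes, 0.577% were called. The call sits at its threshold. It was lost without any 1 of 17 of the 24 arrays, with adjusted p from 0.0147 to 0.0905 over the 24 exclusions, and with quantile normalization the amplitude was 0.13 (adjusted p = 0.351). The CT00 mean lay 0.29 below the plain wave, while the CT06 and CT18 means lay 0.29 and 0.24 above it. With both components the curve was highest at 2.40 h and lowest at 12.5 h, and explained 96.1% of the variance. The broader test of all departures from the 24 h wave called 0 of the 7 genes (limma, 0.13% of all genes called). Aqp8 had an adjusted p of 0.164 there (limma; unadjusted 0.00254). It was the 1 gene of the 7 with an unadjusted p under 0.05 in that test, a share close to the 13.7% of all genes.

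Aqp9, the glycerol channel of the sinusoidal membrane, was highest late in the subjective day and lowest in the subjective night. At CT00 its arrays read -0.16, -0.17 and 0.02, at CT03 -0.15, 0.02 and 0.09, and at CT06 0.09, 0.03 and 0.48. At CT09 they read 0.17, 0.14 and 0.44, and at CT12 0.08, 0.23 and 0.27. Every array of CT06, CT09 and CT12 was above the median of the gene. At CT15 the values were -0.39, -0.09 and -0.02, at CT18 -0.25, -0.25 and -0.15, and at CT21 -0.14, -0.24 and -0.30. All 9 of these night arrays were below the median, and CT15 did not overlap with CT12. Replicate 3 was the highest array at 7 of the 8 times, all but CT21, and stood farthest above the other 2 arrays at CT06 and CT09. With the replicate number as a block in the fit, Aqp9 kept its calls in the 24 h fit and in the contrasts described below.

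Aqp11, the channel of the endoplasmic reticulum, had its high values in the first part of the subjective night. At CT00 its arrays read -0.20, -0.26 and -0.06, at CT03 -0.22, -0.25 and -0.09, and at CT06 -0.11, -0.08 and 0.02. The values at CT09 were 0.06, -0.05 and -0.06. All arrays of CT12 lay above these, at 0.24, 0.20 and 0.35. At CT15 they read 0.11, 0.10 and 0.23, and at CT18 0.12, 0.10 and 0.23. CT21 was spread around the median, with -0.02, 0.14 and -0.12. The 9 arrays of CT12, CT15 and CT18 all lay above the 9 of CT00, CT03 and CT06. Replicate 3 was the highest array of Aqp11 at 6 of the 8 times and of Aqp8 at 0 of 8.

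In the 24 h fit, 3 of the 7 genes were called at an adjusted p under 0.05 by limma, Aqp8 counted, where 13.8% of all genes were. Since Aqp8 entered for this fit, nothing is read from that count. Among the 6 others, Aqp9 passed with an amplitude of 0.25 ± 0.04 (SE), a 1.42-fold swing and a peak at 8.10 h ± 0.587 (adjusted p = 0.000155). Aqp11 passed with an amplitude of 0.20 ± 0.03, a 1.32-fold swing and a peak at 14.3 h ± 0.5 (adjusted p = 1.97e-05). The wave took up 64.7% of the variance of Aqp9 and 73.5% of that of Aqp11. The fitted peak of Aqp9 moved between 7.69 and 8.68 h and that of Aqp11 between 13.8 and 14.7 h over the alternatives, and both calls held in each of them in which the gene was tested. The 3 fitted peaks thus fell near the start of the subjective day for Aqp8, late in the subjective day for Aqp9 and early in the subjective night for Aqp11. The differences between the waves of the members were not tested.

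**Figure D2:**
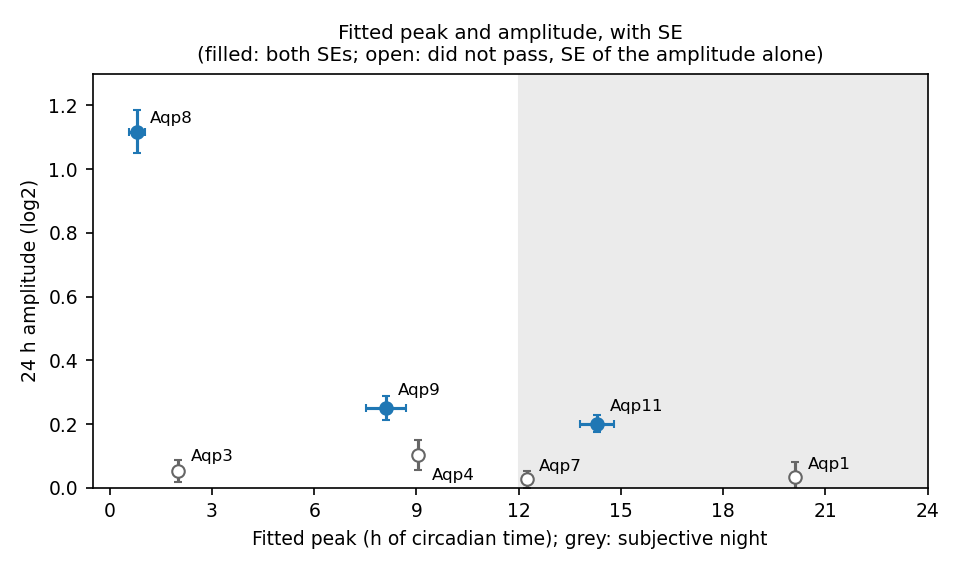
Fitted peak time (x axis, h of circadian time) against 24 h amplitude (y axis, log2) for the 7 aquaporin genes, with standard errors. Aqp8 stands at 1.12, Aqp9 and Aqp11 at 0.25 and 0.20 with later peaks, and the 4 open points, which did not pass, at 0.10 or lower.

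A comparison of the 8 time means with no assumed shape called the same 2 of these 6 genes (10.9% of all genes were called): Aqp11 with an adjusted p of 0.000737 and Aqp9 with 0.0105. The contrasts between times 12 h apart compared the same means in pairs. Aqp11 was higher at CT12 than at CT00 by 0.44 ± 0.07 (SE; 1.35-fold, adjusted p = 0.000508) and at CT15 than at CT03 by 0.34 ± 0.07 (1.26-fold, adjusted p = 0.00626). It was the 1 of the 6 called in each of these contrasts, where 3.46% and 4.48% of all genes were. Aqp9 was lower at CT18 than at CT06, with a difference of -0.42 ± 0.11 (adjusted p = 0.0368), and lower at CT21 than at CT09, with -0.47 ± 0.11 (adjusted p = 0.0188). It was again the 1 of 6 called, where 4.64% and 3.56% of all genes were. The CT18 minus CT06 call was lost without CT06 replicate 3 (difference -0.28, adjusted p = 0.236), CT18 replicate 1 (0.106) or CT18 replicate 2 (0.126). The CT21 minus CT09 call was lost without CT09 replicate 3 (0.120), CT21 replicate 2 (0.0698) or CT21 replicate 3 (0.0922), and without the 4 arrays least like their time (0.0686). Differences that were not called include 0.30 ± 0.11 for Aqp9 in CT12 minus CT00 (limma, adjusted p = 0.236). For Aqp11 the difference in CT18 minus CT06 was 0.21 ± 0.07 (limma, adjusted p = 0.112). All these contrasts share the spread of all 24 arrays. The 12 h component did not pass for Aqp9 (amplitude 0.06, adjusted p = 0.605) or Aqp11 (amplitude 0.01, adjusted p = 0.989).

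**Figure D3:**
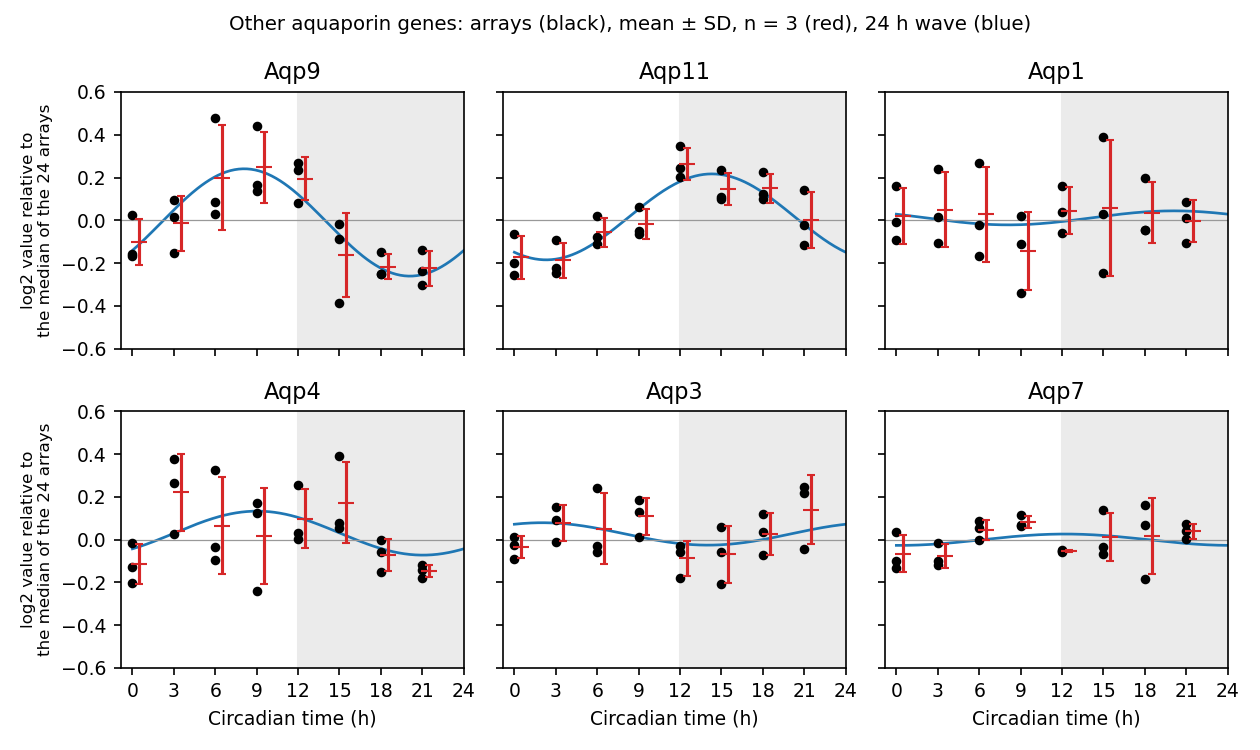
The 6 other aquaporin genes by circadian time on 1 common scale (log2, relative to the median of each gene): black points are arrays, red marks the mean ± SD of 3 arrays and blue the fitted 24 h wave; grey marks the subjective night. Aqp9 and Aqp11 swing in turn, while the fitted waves of Aqp1, Aqp4, Aqp3 and Aqp7 are flatter, with amplitudes of 0.10 or lower.

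The other 4 members did not pass the 24 h test, the test of equality or any of the contrasts. Aqp1, the water channel of endothelium, red blood cells and bile duct epithelium, had an amplitude of 0.03 ± 0.05 (adjusted p = 0.932). Its arrays ran from -0.34 to 0.39 with a pooled SD of 0.184 within a time, a spread about as wide as that of Aqp8 (0.187) and above that of 95.2% of all genes. The time means of Aqp1 spanned 0.20, little more than this SD. The test of equality did not separate its times (limma, adjusted p = 0.928). Its lowest mean was at CT09 (-0.14 ± 0.18, SD, n = 3), where the mean of 8 endothelial markers was lowest too (-0.14, against 0.09 at its highest, at CT15). The mean of the 6 stellate cell markers was also lowest at CT09 (-0.06). The mean of the 3 red blood cell markers tested was lowest at CT15 (-0.06), where the Aqp1 mean was highest (0.06), and highest at CT18 (0.07). For the 5 bile duct markers tested it was lowest at CT12 (-0.12) and highest at CT00 (0.13), where the Aqp1 means were 0.05 and 0.02. The part of these markers in the Aqp1 values was not tested.

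Aqp4, best known as the water channel of astrocytes, had the largest amplitude of these 4 (0.10 ± 0.05, adjusted p = 0.376). Its means were highest at CT03 (0.22 ± 0.18, SD, n = 3) and CT15 (0.17 ± 0.19) and lowest at CT21 (-0.15 ± 0.03). The 12 h component gave it an amplitude of 0.13 ± 0.04 with crests at 3.04 and 15 h, which did not pass (limma, adjusted p = 0.209, unadjusted 0.0166). Aqp7, the channel through which adipocytes release glycerol, had a 24 h amplitude of 0.03 ± 0.03 (adjusted p = 0.864), and its 12 h component reached an unadjusted p of 0.0446 (adjusted p = 0.289). Aqp3, an aquaglyceroporin of epithelia, had a 24 h amplitude of 0.05 ± 0.03 (adjusted p = 0.654) and a 12 h component at an adjusted p of 0.332. Its arrays ran from -0.21 to 0.25, those of Aqp7 from -0.18 to 0.16. Steps without overlap between neighbouring times occurred in these genes too. For Aqp4 they were CT03 against CT00 (0.34) and CT18 against CT15 (-0.25), and for Aqp3 CT12 against CT09 (-0.20). For Aqp7 they were CT06 against CT03 (0.12) and CT12 against CT09 (-0.13). The median amplitude of the 6 genes other than Aqp8 was 0.08, and that of all genes 0.05. Among the aquaglyceroporins, Aqp9 therefore passed and Aqp3 and Aqp7 did not, and whether their waves differ was not tested.

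How bright a probe set was is known only as a coarse class, read from the rounding steps left in the values, which are wider for bright probe sets. Aqp8, Aqp9 and Aqp1 fell in the brighter class with 3902 of the 28815 probe sets, and Aqp11, Aqp4, Aqp3 and Aqp7 in the dimmer one with 24910. Whether a gene of the dimmer class was above background cannot be read from centred values. All 6 hepatocyte markers (Alb, Ttr, Apoa1, Cyp2e1, Hnf4a and Tat) were in the brighter class, against 3 of 8 endothelial, 2 of 6 stellate cell and 1 of 3 red blood cell markers and 0 of 5 bile duct, 0 of 6 Kupffer cell and 0 of 5 adipocyte markers. The 24 h fit called 2 of the 6 hepatocyte markers (Cyp2e1 and Hnf4a), 1 of 5 bile duct markers (Sox9) and 1 of 6 stellate cell markers (Pdgfrb), where 13.8% of all genes were called. It called 0 of the endothelial, Kupffer cell, red blood cell, adipocyte, kidney, pancreas and lymphocyte markers. The mean of the hepatocyte markers ran between -0.03 at CT18 and 0.09 at CT15. Of the 2 called, 1 had a day peak and 1 a night peak, and such waves can cancel in a mean. The mean of no other marker list left the range from -0.14 to 0.13. Whether the share of any cell type changed over the times was not tested.

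The genes most like Aqp8 were taken by Pearson's r over the 24 arrays, as a description without a p. The arrays of a time share the same hour, so r mostly follows the time means. Stra6l, a relative of the retinol transporter gene Stra6, had an r of 0.961 (Spearman's rho 0.949). Coq8a, an atypical kinase of coenzyme Q synthesis, had 0.958, Dhrs3, a reductase of retinal, 0.948, Mad2l2, a DNA repair and checkpoint protein, 0.944, and Asap2, which acts on ARF GTPases, 0.941. All 5 had fitted peaks between 0.459 and 1.23 h, and swings between 1.65-fold (Mad2l2) and 2.51-fold (Coq8a) against the 4.71-fold of Aqp8. The 3 lowest r belonged to Nrg4, a secreted ligand of the epidermal growth factor family (-0.977), Efhd2, a calcium-binding protein (-0.944), and Gys2, the liver glycogen synthase (-0.941), with peaks between 12.9 and 13.2 h. Nrg4 swung 3.81-fold in the opposite direction. Within the family r with Aqp8 was -0.767 for Aqp11, -0.286 for Aqp9 and between -0.243 and 0.315 for the other 4.

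**Figure D4:**
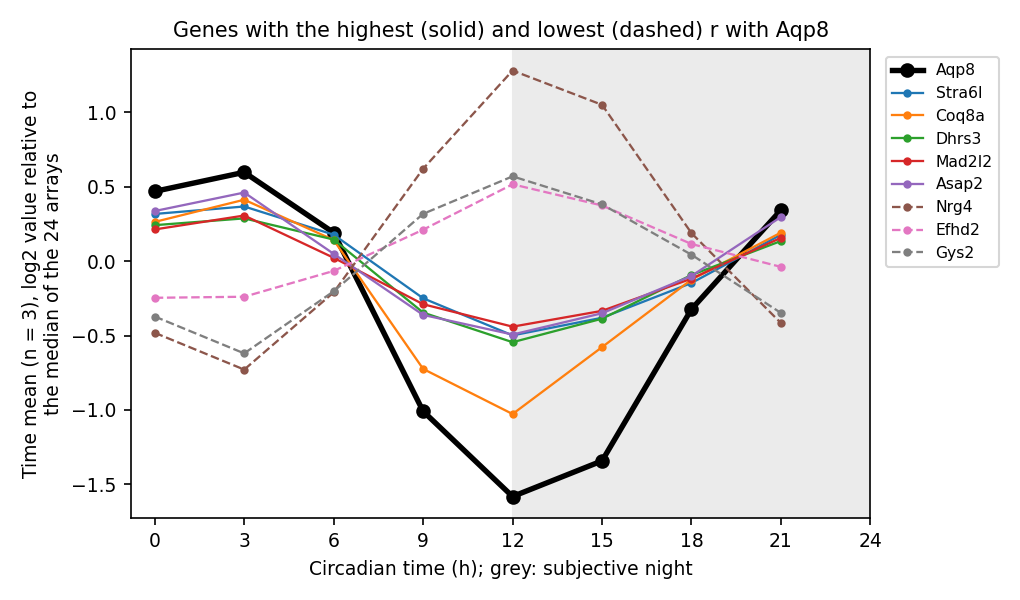
Time means (n = 3 arrays each, log2 relative to the median of each gene) of Aqp8 (thick black), of the 5 genes with the highest r with it (solid) and of the 3 with the lowest (dashed). The solid lines reach their lowest point at CT12 together with Aqp8, where the dashed lines are highest.

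Genes around the transported solutes were followed in 4 lists. These lists were drawn up with earlier results of these data known, so their shares are given as descriptions. The share over all genes includes the many genes of the dimmer class. Of 18 tested genes of glycerol handling, the solute of Aqp9, 14 were called in the 24 h fit (77.8%, against 13.8% of all genes), 6 with a peak in the subjective day and 8 in the night (8.02% and 5.82% of all genes). Their median amplitude was 0.24, against 0.05 over all genes. Pnpla2, the lipase that starts triglyceride breakdown, peaked at 9.30 h ± 0.311 (SE) with 1.65-fold (limma, adjusted p = 1.24e-08). Aqp9 peaked at 8.10 h ± 0.587, and the difference between these 2 peaks was not tested. Gpd1l, a glycerol-3-phosphate dehydrogenase-like protein, peaked at 12.7 h (1.42-fold, adjusted p = 5.56e-06), and Lpin1, a phosphatidate phosphatase of triglyceride synthesis, at 12.5 h (3.54-fold, adjusted p = 1.28e-05).

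Bile secretion at the canalicular and sinusoidal membranes is the process that Aqp8 serves with water. Of its 17 genes tested, 9 were called (52.9%, against 13.8% of all genes), 7 with a day peak and 2 with a night peak. The median amplitude of the 17 was 0.17. Abcb11, the bile salt export pump, peaked at 2.87 h with 1.5-fold (adjusted p = 4.40e-08), nearest to Aqp8 among the 3 named. Abcg8 and Abcg5, the partner subunits of the sterol exporter, peaked at 9.06 h (2.36-fold, adjusted p = 4.73e-09) and 10.6 h (2.19-fold, adjusted p = 5.33e-07), in the hours when Aqp8 was low. Of 15 genes that make or remove hydrogen peroxide, which Aqp8 also conducts, 2 were called (13.3%), close to the 13.8% of all genes. The median amplitude of the 15 was 0.05. The 2 called in the 24 h fit were Txn2, the mitochondrial thioredoxin, at 17.2 h (1.19-fold, limma, adjusted p = 0.00564) and Cat, catalase, at 5.20 h (1.09-fold, adjusted p = 0.0145). The test of equality called 0 of the 15, where 10.9% of all genes were called. Sod2 did not pass (adjusted p = 0.0685). Of 14 genes of ammonia and urea handling 5 were called (35.7%, against 13.8% of all genes), 2 with a day and 3 with a night peak. The median amplitude of the 14 was 0.05. Asl, which releases arginine in the urea cycle, peaked at 16.8 h (1.56-fold, adjusted p = 3.52e-09), the glutamine transporter gene Slc38a3 at 9.67 h (1.52-fold, adjusted p = 1.06e-08) and Arg1, which releases urea, at 11.5 h (1.16-fold, adjusted p = 0.00305).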

How the data were processed

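RNA of each liver was hybridised to its own Affymetrix array, per the labels' protocols. The deposited table gives log2 values (base assumed) for 28815 probe sets, each centred on its median over 24 arrays. Every row median was 0 to within 5e-07. How the authors corrected background, summarized and normalized is not given in the sources used here. Array medians ran from -0.0185 to 0.0147 and interquartile ranges from 0.0992 to 0.200. The number of arrays limits the precision, and depth has no counterpart here.

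Symbols came from the platform annotation. The 21780 probe sets with 1 symbol were averaged into 19935 genes. limma 3.58.1 in R 4.3.3 fitted 24 h terms, 24 h with 12 h terms, all 7 time terms and group means, with empirical Bayes moderation and Benjamini-Hochberg adjustment over all genes at 0.05. Standard errors of amplitudes and peaks are by the delta method. The fits were tested on simulated data. The genes named are the members, the other aquaporins, the 5 most and 3 least like Aqp8, 3 clock genes and the 3 smallest p per pathway list. Members, lists and tests were chosen with earlier results of these data known.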

Additional observations from a re-analysis of the deposited data

How the results depend on the processing

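The calls of Aqp9 and Aqp11 in the 24 h fit held under all 41 alternatives that tested both genes, which left out each array or each time, added the replicate number as a block or 12 h terms, kept probe sets separate, changed the normalization, used array weights, left out the 4 arrays least like their time or changed the moderation. In the test of equality both kept their calls and Aqp3 joined without the 4 arrays (3 called). The count of members with a 12 h component (1) ran from 0 to 1 when single arrays were left out. It was 0 with separate probe sets, quantile normalization, median centring or no moderation, and 2 without the 4 arrays, where Aqp7 joined. Departures from the wave (0 called) became 1, Aqp8, with array weights or without the 4 arrays. In CT12 minus CT00 array weights called 2, Aqp9 as well as Aqp11. The counts of CT18 minus CT06 and CT21 minus CT09 ran from 0 to 1 without single arrays, and were 0 with no moderation and 0 without the 4 arrays, in that order. The causes were not tested. The Aqp8 difference for CT12 minus CT00 (-2.05) was -1.85 with quantile normalization and between -2.20 and -1.94 without single arrays. Over all genes, calls ran from 1087 to 3198 around 2758 in the 24 h fit, from 47 to 655 around 115 for the 12 h component, from 3 to 2016 around 26 for departures, from 870 to 4900 around 2167 for equality, and in the contrasts from 341 to 1388 around 690, 353 to 1410 around 894, 450 to 1404 around 925 and 347 to 1211 around 709. The lowest counts in the 24 h fit, equality and the contrasts came from the brighter genes alone, a run that tests fewer genes and holds only Aqp8, Aqp9 and Aqp1 of the members. Arrays were also compared after each gene was centred within its time. Same-numbered arrays of different times then correlated with a mean r of 0.0937, from -0.399 to 0.498 (45 of 84 pairs over 0.1). The mean r of arrays with other numbers was -0.0465, a value that the centring largely sets, so it is no separate contrast. Of the 24 arrays, 15 correlated best with those of their own number, so arrays of 1 number share some of their spread. The main fit leaves the number out, and what it stands for was not tested. With the replicate block the member counts stayed at 2 (24 h), 2 (equality), 1 (12 h), 0 (departures) and 1 in each contrast. Member counts were not formed for the brighter genes. Background correction and slide or scan as a block were not run, since the table holds neither scanner values nor scan data.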

Other observations

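The other 5 aquaporin genes on the array, Mip, Aqp2, Aqp5, Aqp6 and Aqp12, are known from the eye lens, kidney, secretory glands and pancreas rather than liver, and all 5 were in the dimmer class. None passed the 24 h test (0 of 5 by limma, adjusted p from 0.300 for Aqp6 to 0.972 for Aqp12, and 0 at an unadjusted p under 0.05, against 13.8% of all genes called and 23.8% under 0.05 unadjusted). Their time means nevertheless shared their extremes, with the highest at CT21 in 5 of 5 and the lowest at CT15 in 5 of 5. The share of all genes with these extremes was not counted. For Aqp12 the CT21 mean (0.082 ± 0.258, SD, n = 3) was close to that of CT06 (0.078). For Mip the CT15 mean (-0.077) was close to that of CT00 (-0.065). The test of equality called 0 of the 5, where 10.9% of all genes were called. The 12 h component reached an unadjusted p under 0.05 in 4 of the 5 (Aqp5 0.0151, Aqp6 0.0330, Mip 0.0484 and Aqp2 0.0496) and called 0 after adjustment. Of all genes, 16.7% were under 0.05 unadjusted in that test, and the 5 genes vary together over the arrays, so they are not separate counts. Over the 24 arrays, r between the 5 genes ran from 0.297 to 0.884, highest between Aqp2 and Aqp6. The mean of the 5 genes was highest in CT21 replicate 3 (0.24), CT18 replicate 2 (0.23) and CT21 replicate 2 (0.18) and lowest in CT15 replicate 2 (-0.23). The widest interquartile ranges of all 24 arrays belonged to CT21 replicate 3 (0.2), CT15 replicate 2 (0.174), CT09 replicate 2 (0.166) and CT18 replicate 2 (0.165). The part of this array spread in the values of dim genes was not tested.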
